A study of Mus musculus with 2 samples.

Results

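TRAV13 is a subgroup of closely related variable (V) genes of the T cell receptor (TCR) alpha locus (TRA), and this account describes every TRA chain in the data that uses it. A chain was taken as a member when the V gene named for it was TRAV13 followed by anything but a further digit, so that the copies marked D and N entered. By this rule 402 of 3782 TRA chains were members, 193 of 1862 in the library from WT mice and 209 of 1920 in the library from Btla-/- mice. Thymic CD4 single positive T cells were enriched from C57BL/6J mice and from mice labelled C57BL/6-Btla KO with a kit that isolates naive CD4 T cells by negative selection, and the mice of both genotypes were aged 8 to 12 weeks. BTLA is an inhibitory receptor of lymphocytes, and the study asked whether its loss alters the repertoire of TCRs that thymic selection leaves. The number of mice behind each library was not stated, so each genotype was 1 sample and no test between genotypes was made. Transcripts other than those of the TCR were not read, and neither the genotype nor the CD4 label could therefore be checked in the data.

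An alpha chain is made when 1 TRAV gene is cut and joined to 1 TRAJ segment, and the bases lost or added at that joint, together with both gene ends, form the third complementarity-determining region (CDR3) that faces the antigen peptide. The locus is rearranged in rounds in thymocytes: early rounds tend to join the TRAV genes nearest the TRAJ cluster to TRAJ segments at its 5′ end, and later rounds, which delete the first product, reach TRAV genes farther upstream and TRAJ segments farther downstream. In C57BL/6 mice a stretch of the TRAV cluster exists in additional copies, whose genes carry the letters D and N, so that a subgroup such as TRAV13 has members spread along much of the locus.

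All 6003 WT contigs and 7101 Btla-/- contigs in the files were productive, and they came from 4040 and 5077 cell barcodes, with 80347 and 75456 unique molecular identifiers (UMIs, which count captured transcripts) from 26700294 and 22026825 reads. Both libraries held more beta (TRB) than alpha chains, 4141 and 5181 of them. Across the 2 libraries 30 cell barcodes occurred in both, and these included 4 WT and 1 Btla-/- cells with a TRAV13 chain. Shares are given below with exact 95% binomial intervals, which cover counting error alone and not the differences between mice or between library preparations.

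RefSeq lists 13 TRAV13 genes on the plus strand of chromosome 14 of GRCm38, over 945 kb, in the order TRAV13D-1 to TRAV13D-4, TRAV13N-1 to TRAV13N-4 and TRAV13-1 to TRAV13-5. The annotation deposited with the contigs used 10 names. When the V region of each chain, from the start of the first framework to the base before the cysteine of the CDR3, was searched in the genome, 401 of the 402 chains matched TRAV13 genes base for base. The remaining chain, a WT contig called TRAV13-1 with 1 UMI, differed from that gene by 1 base of 258. No chain of another subgroup matched a TRAV13 gene.

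The germline 3′ ends are shown because they set the first residues of the CDR3 and the point at which the gene is cut. Each starts with the cysteine codon, capitals mark the coding end that a joint can keep, and the lower case letters that follow are the recombination signal, a heptamer, a spacer of 23 bases and a nonamer. The sequences are from the plus strand of GRCm38, at chr14:52851854-52851905 for TRAV13D-1, chr14:52943277-52943328 for TRAV13D-2, chr14:53545513-53545564 for TRAV13-1, chr14:53635387-53635438 for TRAV13-2, chr14:53757909-53757960 for TRAV13-4-DV7 and chr14:53795951-53796002 for TRAV13-5.
TRAV13D-1: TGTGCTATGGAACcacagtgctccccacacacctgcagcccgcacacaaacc
TRAV13D-2: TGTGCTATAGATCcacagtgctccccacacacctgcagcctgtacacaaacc
TRAV13-1: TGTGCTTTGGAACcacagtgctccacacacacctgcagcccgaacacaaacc
TRAV13-2: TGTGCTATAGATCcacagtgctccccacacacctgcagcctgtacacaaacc
TRAV13-4-DV7: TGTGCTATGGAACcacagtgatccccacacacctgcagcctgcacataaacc
TRAV13-5: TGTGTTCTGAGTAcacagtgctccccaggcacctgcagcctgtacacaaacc

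All 13 genes had a coding end of 13 bases and the same heptamer, cacagtg, and the nonamer of TRAV13-4-DV7, acataaacc, differed from that of the others. The coding ends fell into 4 kinds. The end of TRAV13D-1 was shared by most genes, TRAV13D-2, TRAV13N-2 and TRAV13-2 had the end that starts CAI when translated, TRAV13-1 had its own that starts CAL, and TRAV13-5 had the only one that starts CVL.

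The first complementarity-determining region (CDR1), which is encoded entirely by the TRAV gene, separated the copies further. The sequences below are those of the germline genes, and capitals mark bases that differ from the CDR1 of TRAV13-1. TRAV13D-3 and TRAV13N-3 were also the only used genes whose CDR2 was of another length, 18 bases in place of 15.
TRAV13D-1, TRAV13N-1 and TRAV13-1: acatctttgaacagt
TRAV13D-3 and TRAV13N-3: acaActttgaacagt
TRAV13D-4, TRAV13-2 and TRAV13-4-DV7: TcCAcAGCAaCcCgG
TRAV13D-2 and TRAV13N-2: TcCAcAGCAaCcCAG
TRAV13N-4: aTCtTtACAaacCAG
TRAV13-5: aTCtctACAaacCAG

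Chains with the CDR1 of TRAV13-1 were the most frequent in both libraries. They made up 50.3% of the TRAV13 chains of WT cells (97 of 193, interval 43.0 to 57.5%) and 36.8% of those of Btla-/- cells (77 of 209, interval 30.3 to 43.8%). The intervals overlapped by less than 1 percentage point.

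Some copies could not be told apart by sequence. The V regions of TRAV13D-2 and TRAV13N-2 were identical over 258 bases, so 77 chains, all named TRAV13N-2 by the annotation, could come from either gene. TRAV13D-1 and TRAV13N-1 differed by G130A, and TRAV13D-3 and TRAV13N-3 by T204C, with positions counted from 1 at the first base of the V region and the base of the D copy given first. The largest difference between V regions of equal length was 30 bases, between TRAV13N-1 and TRAV13D-2 or TRAV13N-2.

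The name TRAV13N-2 also covered a further gene. In 7 of the chains called TRAV13N-2, 3 from WT and 4 from Btla-/- cells, the V region matched TRAV13-5, the member nearest to the TRAJ cluster, over its 255 bases. These were the only TRAV13 chains whose match lay under another name. No chain matched TRAV13-3. For a count of 0 a rough limit of 3 counts is given, here 0.746% of the 402 chains. Below, genes are named by the match to the genome.

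TRAV13 accounted for similar shares of the alpha chains of both genotypes. It was used by 10.4% of WT chains (193 of 1862, interval 9.02 to 11.8%) and 10.9% of Btla-/- chains (209 of 1920, interval 9.53 to 12.4%). The difference was well inside the counting error of either library. TRAV13 ranked 4 among the 20 TRAV subgroups seen in WT cells and 4 among the 19 seen in Btla-/- cells.

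TRAV13-1, the first TRAV13 gene 3′ of the duplicated stretches, was the most used member in both libraries. It made up 28.5% of WT TRAV13 chains (55 of 193, interval 22.2 to 35.4%) and 23.9% of Btla-/- TRAV13 chains (50 of 209, interval 18.3 to 30.3%). The identical pair TRAV13D-2 and TRAV13N-2 followed in Btla-/- cells with 21.1% (44 chains, interval 15.7 to 27.2%) and in WT cells with 17.1% (33 chains, interval 12.1 to 23.2%). In WT cells the intervals of these leading groups overlapped only between 22.2 and 23.2%, and in Btla-/- cells they overlapped more widely. Their order was not tested.

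TRAV13N-1 showed the widest gap between the libraries among the single genes. It was used by 15.0% of WT TRAV13 chains (29 of 193, interval 10.3 to 20.9%) and 7.66% of Btla-/- TRAV13 chains (16 of 209, interval 4.44 to 12.1%). The intervals overlapped. TRAV13D-1, its near-identical copy farther upstream, stood at 13 WT chains and 11 Btla-/- chains.

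The remaining genes had at most 18 chains in a library, with overlapping intervals between the libraries. TRAV13N-3 had 14 WT and 18 Btla-/- chains, TRAV13N-4 had 13 and 18, TRAV13-2 had 14 and 17, and TRAV13-4-DV7, which can also serve as a delta chain V gene, had 11 and 18. The rarest were TRAV13D-3 with 4 and 7, TRAV13D-4 with 3 and 6, and TRAV13-5 with 3 and 4. The assay read alpha and beta chain transcripts and the files held no delta chains, so use of the gene in delta chains could not be seen.

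As a share of all alpha chains, none of the 9 TRAV13 names with at least 10 chains had intervals that were apart between the libraries. Among all annotated TRAV genes with at least 10 chains the intervals were apart for 1.23% (1 of 81). Grouped by copy, 43.5% of WT TRAV13 chains (84 of 193, interval 36.4 to 50.8%) and 42.6% of Btla-/- TRAV13 chains (89 of 209, interval 35.8 to 49.6%) came from genes without a letter. The others came from D copies in 20 and 24 chains, from N copies in 56 and 52 chains, and from the pair shared by D and N in 33 and 44 chains.

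**Figure D1:**
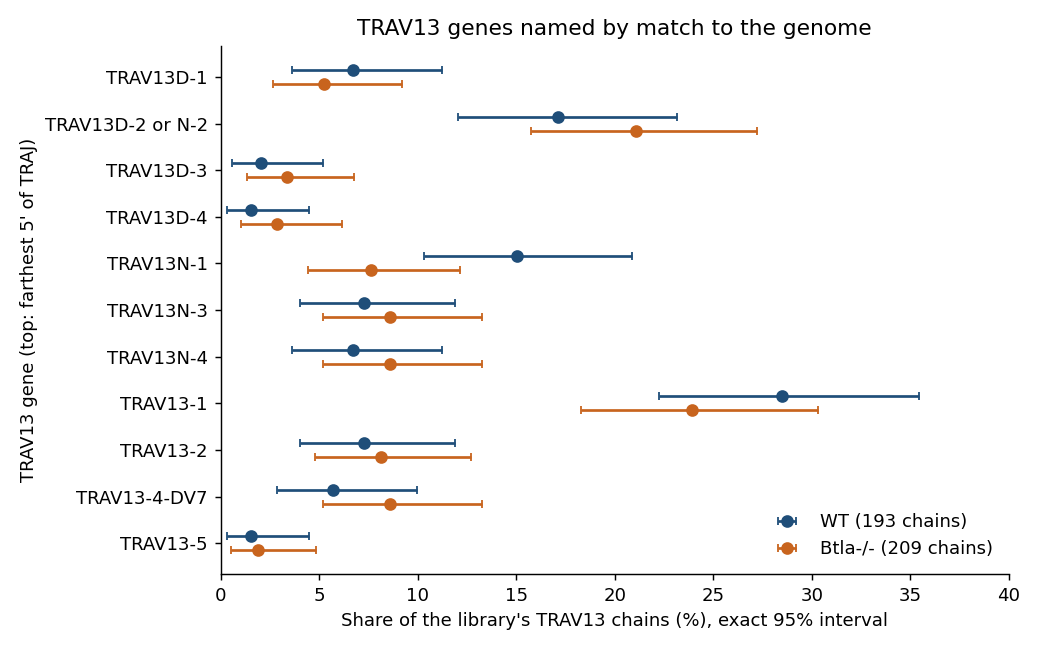
Share of each library's TRAV13 chains (x axis, percent) that matched each TRAV13 gene (y axis, in genome order with the gene farthest 5′ of the TRAJ cluster at the top), with WT in blue, Btla-/- in orange and exact 95% intervals as bars. TRAV13-1 leads in both libraries, and the widest gap is at TRAV13N-1, at 15.0% and 7.66%, where the intervals still overlap.

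The TRAJ partner of a chain followed the place of its TRAV13 gene. TRAJ segments are numbered from the 3′ end, so TRAJ1 to TRAJ30 are the downstream part of the cluster. In WT cells 70.6% of chains from D and N copies were joined to TRAJ1 to TRAJ30 (77 of 109, interval 61.2 to 79.0%), against 26.2% of chains from the genes without a letter (22 of 84, interval 17.2 to 36.9%). In Btla-/- cells the shares were 70.8% (85 of 120, interval 61.8 to 78.8%) and 27.0% (24 of 89, interval 18.1 to 37.4%). In each library the intervals of the 2 classes did not overlap. At other boundaries the libraries lay further from each other within the D and N copies: 45.0% of WT and 52.5% of Btla-/- chains used TRAJ1 to TRAJ20, and 85.3% and 80.8% used TRAJ1 to TRAJ40. Genes without a letter had 5.95% and 7.87% at TRAJ1 to TRAJ20, and 52.4% and 53.9% at TRAJ1 to TRAJ40.

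Among the genes without a letter, the share fell from TRAV13-1 through TRAV13-2 to TRAV13-4-DV7, towards the TRAJ cluster. Over both libraries only the intervals of TRAV13-1 (27.9 to 47.1%) and TRAV13-4-DV7 were apart, and those of neighbouring genes overlapped. TRAV13-1, 609 kb from the 5′-most TRAJ segment, was joined to TRAJ1 to TRAJ30 in 34.5% of WT chains (19 of 55, interval 22.2 to 48.6%) and 40% of Btla-/- chains (20 of 50, interval 26.4 to 54.8%). TRAV13-2, at 520 kb, had 3 of 14 WT chains (interval 4.66 to 50.8%) and 4 of 17 Btla-/- chains (interval 6.81 to 49.9%) there. Its interval over both libraries was 9.59 to 41.1%. Of TRAV13-4-DV7, at 397 kb, 0 of 29 chains lay there (interval 0 to 11.9%, limit of 3 counts 10.3%). The most downstream segment it used was TRAJ31 in both libraries. TRAV13-5, at 359 kb, had 0 of 7 chains there and used TRAJ49 to TRAJ57, and with 7 chains the limit is 42.9%.

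The 7 TRAV13-5 chains are shown because the gene was not among the names used in the deposited annotation and its median TRAJ number, 56 over both libraries, was the highest of the matched genes. Each line gives the library, the TRAJ segment and the nucleotide sequence of the CDR3, with the bases that equal the germline V end in capitals.
WT, TRAJ49: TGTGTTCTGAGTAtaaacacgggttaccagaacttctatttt
WT, TRAJ53: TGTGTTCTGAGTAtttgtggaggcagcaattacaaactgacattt
WT, TRAJ56: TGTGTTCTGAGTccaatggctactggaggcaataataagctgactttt
Btla-/-, TRAJ52: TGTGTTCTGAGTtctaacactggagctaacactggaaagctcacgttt
Btla-/-, TRAJ56: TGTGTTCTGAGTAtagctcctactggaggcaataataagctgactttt
Btla-/-, TRAJ57: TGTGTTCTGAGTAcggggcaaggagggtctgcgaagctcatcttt
Btla-/-, TRAJ57: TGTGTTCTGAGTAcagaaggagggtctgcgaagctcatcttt
All 7 kept at least 12 of the 13 germline bases, and their UMI counts ranged from 1 to 9.

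Upstream of TRAV13-1 the shares were higher. Over both libraries the share of chains joined to TRAJ1 to TRAJ30 was 61.3% for TRAV13N-4 (19 of 31), 78.1% for TRAV13N-3 (25 of 32) and 68.9% for TRAV13N-1 (31 of 45). It was 75.3% for the pair TRAV13D-2 and TRAV13N-2 (58 of 77), 77.8% for TRAV13D-4 (7 of 9), 63.6% for TRAV13D-3 (7 of 11) and 62.5% for TRAV13D-1 (15 of 24), the gene farthest upstream at 1303 kb. The intervals of all these genes overlapped, and no order could be read among them.

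**Figure D2:**
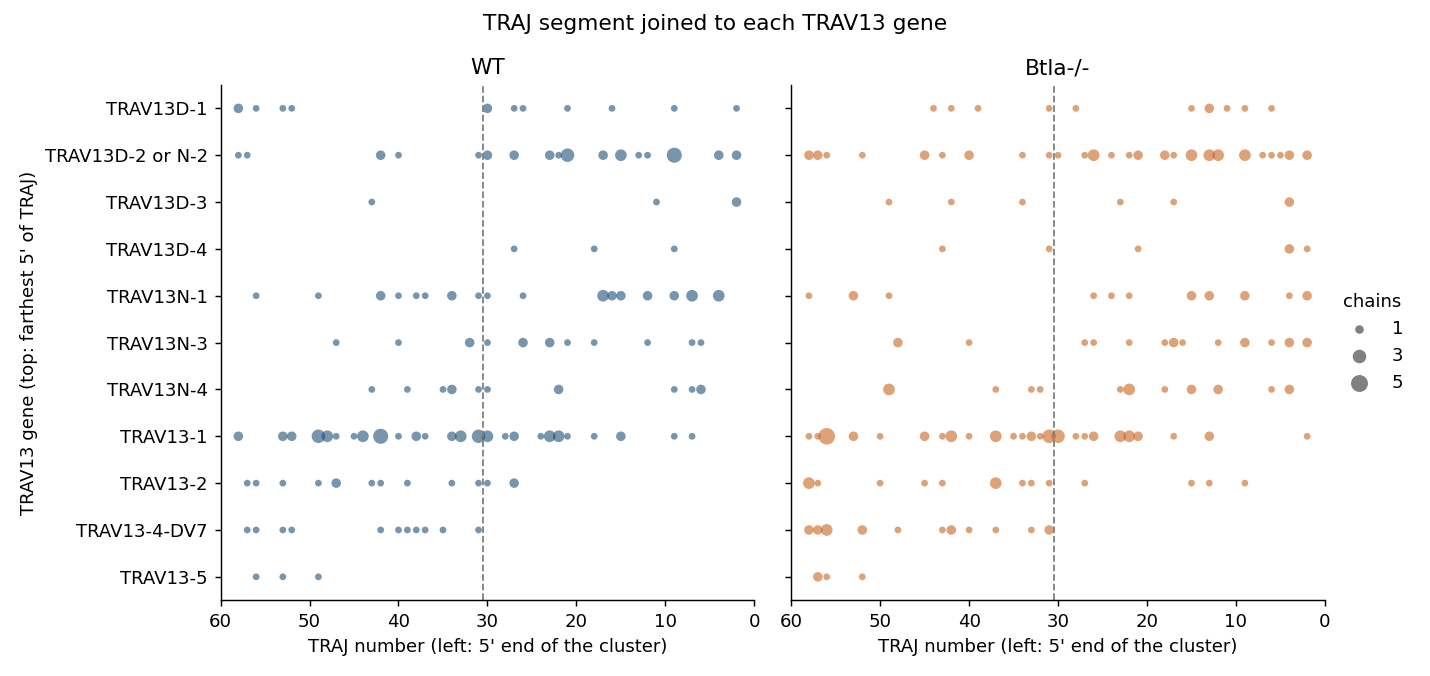
TRAJ segment (x axis, TRAJ number, with the 5′ end of the cluster at the left) joined to each TRAV13 gene (y axis, in genome order with the gene nearest the TRAJ cluster at the bottom) in WT (left) and Btla-/- (right) chains, with the area of a point in proportion to the number of chains and a dashed line between TRAJ30 and TRAJ31. The points of TRAV13-4-DV7 and TRAV13-5 lie left of the line in both libraries. Points of some D and N copies reach TRAJ2 in both libraries, as does 1 TRAV13-1 chain in Btla-/- cells.

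**Figure D3:**
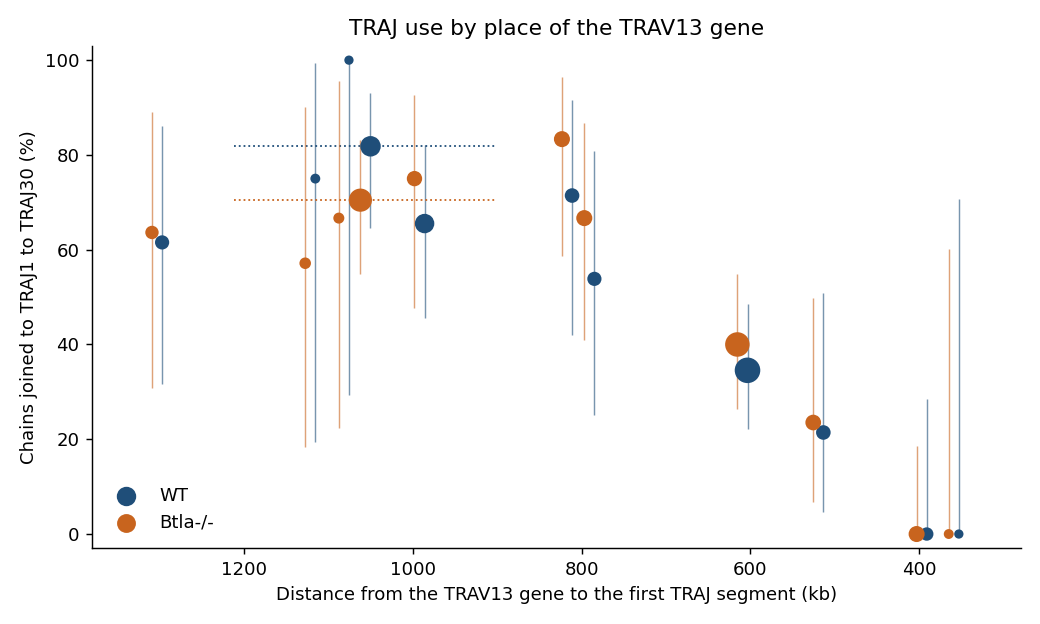
Percent of chains joined to TRAJ1 to TRAJ30 (y axis) against the distance of the TRAV13 gene from the 5′-most TRAJ segment (x axis, kb, decreasing to the right), for WT (blue) and Btla-/- (orange), with exact 95% intervals as bars and larger points for more chains. Points of a gene are set slightly apart on the x axis for legibility, and the identical TRAV13D-2 and TRAV13N-2 are drawn midway with a dotted line between their positions. The share falls from 34.5% and 40% at TRAV13-1 to 0 at TRAV13-4-DV7 and lies between 53.8% and 100% for the genes upstream.

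Other TRAV subgroups also had higher shares in D and N copies than in genes without a letter. In the 9 other subgroups with all 3 kinds of names, 63.9% of WT chains with D or N names (443 of 693, interval 60.2 to 67.5%) and 34.4% of those without a letter (197 of 572, interval 30.5 to 38.5%) were joined to TRAJ1 to TRAJ30. In Btla-/- cells these shares were 71.9% (568 of 790, interval 68.6 to 75.01%) and 43.7% (228 of 522, interval 39.4 to 48.1%). For these subgroups the WT and Btla-/- intervals did not overlap in either class. The TRAV13 classes differed between libraries by less than 1 percentage point at this boundary. They held fewer chains, and their WT intervals, 61.2 to 79.0% and 17.2 to 36.9%, were wide enough to hold such a shift. Shares of the other subgroups were not taken at other boundaries. The interval of Btla-/- TRAV13 genes without a letter lay below that of the same class in the other subgroups. In WT cells the intervals of this class overlapped, and those of D and N copies overlapped in both libraries. The TRAV13 classes were set by the match to the genome and those of the other subgroups by name. The differences between TRAV13 and the other subgroups were not tested.

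Taken as a whole, TRAV13 chains were joined to TRAJ1 to TRAJ30 in 51.3% of WT chains (99 of 193, interval 44.0 to 58.5%) and 52.2% of Btla-/- chains (109 of 209, interval 45.2 to 59.1%). TRA chains outside TRAV13 stood at 48.4% in WT (807 of 1669, interval 45.9 to 50.8%) and 58.7% in Btla-/- cells (1004 of 1711, interval 56.3 to 61.02%), with intervals apart. Whether TRAV13 differed from the other chains in this respect could not be tested with 1 library of each genotype, and the TRAV13 intervals are wide enough to hold a shift of several percentage points.

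The TRAV12, TRAV7 and TRAV14 subgroups, which also have D and N copies, served for comparison. In TRAV12 the share was 44.7% in WT (92 of 206, interval 37.7 to 51.7%) and 62.4% in Btla-/- cells (133 of 213, interval 55.6 to 69.0%), and these intervals were apart. In TRAV7 it was 54.7% (129 of 236, interval 48.1 to 61.1%) and 63.8% (185 of 290, interval 58.0 to 69.3%), and in TRAV14 44.1% (75 of 170, interval 36.5 to 51.9%) and 55.9% (114 of 204, interval 48.8 to 62.8%), with overlapping intervals in both. By the total variation distance between the shares of 5 TRAJ blocks, over both libraries together, the subgroups most like TRAV13 among 11 with at least 100 chains were TRAV14 at 0.0250, TRAV9 at 0.0577 and TRAV12 at 0.0635, where 0 means equal shares. Within a library the distances were larger for these subgroups, 0.0746 in WT and 0.0578 in Btla-/- cells for TRAV14, 0.0936 and 0.0785 for TRAV9, and 0.0828 and 0.140 for TRAV12. In WT cells alone TRAV6 was nearest, at 0.0189, and in Btla-/- cells alone TRAV14.

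TRAV13 chains used 43 TRAJ segments, the same number as all alpha chains, and no segment dominated. In WT cells TRAJ9, TRAJ30 and TRAJ42 led with 11 chains each, 5.70% of the 193 chains. In Btla-/- cells TRAJ4 and TRAJ56 led with 11 chains each, 5.26% of the 209 chains, ahead of TRAJ13 and TRAJ31 with 10 each.

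Among segments with at least 10 TRAV13 chains, those with the largest differences moved both ways and came from different parts of the cluster. TRAJ13 was joined to TRAV13 in 1 WT chain (0.518%, interval 0.0131 to 2.85%) and 10 Btla-/- chains (4.78%, interval 2.32 to 8.62%). TRAJ4 and TRAJ56 each had 5 WT chains and 11 Btla-/- chains. In the other direction, TRAJ30 had 11 WT and 5 Btla-/- chains, TRAJ42 had 11 and 7, and TRAJ27 had 8 and 4. Among TRA chains outside TRAV13, TRAJ4 had 2.34% in WT and 4.73% in Btla-/- cells, with intervals apart. The WT and Btla-/- shares there were 1.92% and 2.22% for TRAJ13 and 2.28% and 1.81% for TRAJ56. They were 3.59% and 2.10% for TRAJ30, 2.88% and 2.34% for TRAJ42, and 2.58% and 2.16% for TRAJ27. Of the 23 segments with at least 10 TRAV13 chains, 0 had intervals that were apart between the libraries, and among TRA chains outside TRAV13 the intervals were apart for 4.65% of segments (2 of 43).

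CDR3 regions of TRAV13 chains were shorter than those of other alpha chains, in both libraries alike. Their mean length, counted from the cysteine to the closing phenylalanine or tryptophan, was 13.2 residues in WT (SD over chains 1.55, n = 193) and 13.2 residues in Btla-/- cells (SD 1.54, n = 209), and the range was 9 to 17 in both. Other chains averaged 13.8 residues in each library (SD 1.46, n = 1669, and SD 1.48, n = 1711). The spread over chains was larger than the difference between the means.

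Chains of at most 12 residues made up 30.1% of TRAV13 chains in WT (58 of 193, interval 23.7 to 37.1%) and 33.0% in Btla-/- cells (69 of 209, interval 26.7 to 39.8%). Outside TRAV13 they made up 15.8% (264 of 1669, interval 14.1 to 17.7%) and 17.9% (306 of 1711, interval 16.1 to 19.8%). The intervals of TRAV13 and of the other chains were apart in each library, and those of the 2 genotypes overlapped.

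**Figure D4:**
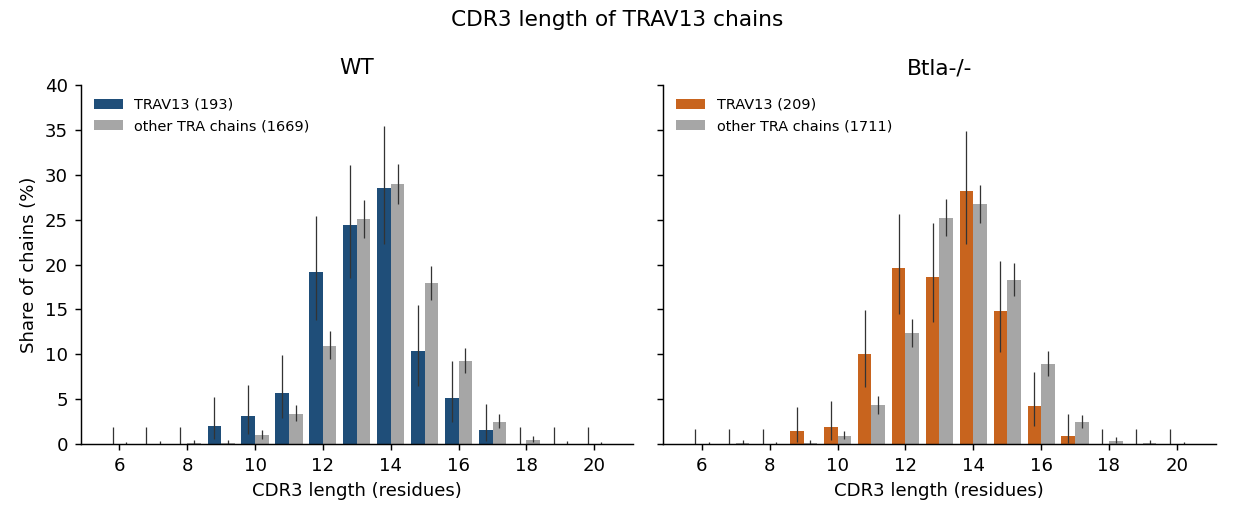
Distribution of CDR3 length (x axis, residues) as a share of chains (y axis, percent) for TRAV13 chains (coloured bars) and other TRA chains (grey bars) in WT (left, 193 and 1669 chains) and Btla-/- (right, 209 and 1711 chains), with exact 95% intervals as lines. TRAV13 bars stand above the grey ones at 9 to 12 residues and below them at 15 to 17 in both libraries.

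The part of the CDR3 that came from the V gene was the shorter one. In TRAV13 chains a mean of 10.0 bases in WT and 10.1 bases in Btla-/- cells equalled the germline V end of 13 bases, whereas in other chains 11.6 and 11.4 bases equalled V ends that averaged 13.6 bases. The part equal to the TRAJ segment was alike, 26.5 and 26.6 bases in TRAV13 chains and 26.6 and 26.8 in the others. Bases that equalled neither end numbered 3.31 (SD 2.33, n = 192) in WT and 3.005 (SD 2.16, n = 209) in Btla-/- TRAV13 chains, and 3.38 and 3.20 in the others. For genes outside TRAV13 the V end was taken from the annotated gene end, and an added base that happens to equal the germline is counted as germline.

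Over both libraries, the mean number of V bases kept ran from 8.73 in TRAV13D-3 chains (SD 3.20, n = 11) to 12.7 in TRAV13-5 chains (SD 0.488, n = 7). TRAV13D-4 chains kept 9 (SD 2.60, n = 9), TRAV13D-2 and TRAV13N-2 chains 9.22 (SD 2.86, n = 77), TRAV13-1 chains 10.7 (SD 2.25, n = 105) and TRAV13-4-DV7 chains 10.9 (SD 1.85, n = 29). The SDs are over chains, and the genes were not tested against each other. The whole germline end was kept in 30.7% of WT TRAV13 chains (59 of 192, interval 24.3 to 37.8%) and 25.8% of Btla-/- TRAV13 chains (54 of 209, interval 20.05 to 32.3%), against 37.4% (interval 35.1 to 39.8%) and 35.3% (interval 33.0 to 37.6%) of the other chains. Joints without any added base were about as frequent in TRAV13, at 10.9% and 10.0%, as in the other chains, at 12.2% and 13.6%.

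Over both libraries, TRAV13-2 had the shortest mean CDR3 of the matched genes, 12.5 residues, and TRAV13-5 the longest, 15.1. TRAV13-2 chains averaged 12.2 residues in WT (SD 1.72, n = 14) and 12.8 in Btla-/- cells (SD 1.47, n = 17), and TRAV13-5 chains 15.0 (SD 1, n = 3) and 15.2 (SD 0.957, n = 4). TRAV13-1 chains averaged 13.4 (SD 1.45, n = 55) and 13.5 (SD 1.62, n = 50). The 7 TRAV13-5 chains were too few to compare further.

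The first residues of the CDR3 were mostly those of the germline end. At least the first 9 bases equalled the germline in 71.4% of WT chains (137 of 192, interval 64.4 to 77.6%) and 75.1% of Btla-/- chains (157 of 209, interval 68.7 to 80.8%). The start CAM was the most frequent, in 32.6% of WT (63 of 193, interval 26.1 to 39.7%) and 35.4% of Btla-/- chains (74 of 209, interval 28.9 to 42.3%). CAL was second in WT cells, with 25.9% (50 chains, interval 19.9 to 32.7%) against 21.1% in Btla-/- cells (44 chains, interval 15.7 to 27.2%). CAI had 18.1% in WT cells (35 chains, interval 12.97 to 24.3%) and 25.8% in Btla-/- cells (54 chains, interval 20.05 to 32.3%). All these pairs of intervals overlapped.

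Most chains with a given start came from genes whose germline end encodes it: 131 of 137 CAM chains, 93 of 94 CAL chains and 70 of 89 CAI chains. The other 19 CAI chains came from genes with another germline end. CAL began 87.6% of TRAV13-1 chains over both libraries (92 of 105, interval 79.8 to 93.2%), CAI began 62.3% of TRAV13D-2 and TRAV13N-2 chains (48 of 77, interval 50.6 to 73.1%) and 71.0% of TRAV13-2 chains (22 of 31, interval 52.0 to 85.8%), and CVL began all 7 TRAV13-5 chains. CAM began 86.2% of TRAV13-4-DV7 chains (25 of 29, interval 68.3 to 96.1%) and 75.6% of TRAV13N-1 chains (34 of 45, interval 60.5 to 87.1%), but 5 of 11 TRAV13D-3 chains and 5 of 9 TRAV13D-4 chains. TRAV13D-2 and TRAV13N-2 chains varied more at this place than TRAV13-1 chains, with 11 different starts of 3 residues among 77 chains against 9 among 105.

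Few TRAV13 chains were found more than once. The 193 WT chains were 190 distinct combinations of genes and CDR3 sequence, of which 2 occurred in more than 1 cell, and the 209 Btla-/- chains were 203, of which 5 did. The 2 chains found in 3 cells are shown with the germline V bases in capitals.
WT, TRAV13D-2 or TRAV13N-2 with TRAJ9: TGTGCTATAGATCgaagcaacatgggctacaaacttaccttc
Btla-/-, TRAV13-1 with TRAJ30: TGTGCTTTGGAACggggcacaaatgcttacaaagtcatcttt
Both kept the whole germline V end. A TRB chain was read in all 3 cells of each, and 2 of the 3 Btla-/- cells shared 1 TRB chain whereas the 3 WT cells had 3 different ones. The WT chain found in 2 cells, TRAV13D-2 or TRAV13N-2 with TRAJ21, had the same TRB chain in both. So did TRAV13-4-DV7 with TRAJ42 and TRAV13N-4 with TRAJ49 in Btla-/- cells, but not TRAV13D-2 or TRAV13N-2 with TRAJ26. For TRAV13D-4 with TRAJ4, a TRB chain was read in 1 of the 2 Btla-/- cells.

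Between the libraries, 3 CDR3 nucleotide sequences were shared, and 6 as amino acids, out of 189 WT and 203 Btla-/- TRAV13 sequences. The 6 were 3.17% of the WT and 2.96% of the Btla-/- amino acid sequences, against 79 shared sequences in the larger pool of other TRA chains, 4.99% and 5.03%. The 3 nucleotide sequences are printed because 1 of them was reached from different TRAV13 genes.
TRAV13-1 with TRAJ23: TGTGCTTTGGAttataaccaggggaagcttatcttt
TRAV13-1 with TRAJ37: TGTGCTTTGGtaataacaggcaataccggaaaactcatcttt
TRAV13N-1 in WT and TRAV13D-3 in Btla-/-, with TRAJ42: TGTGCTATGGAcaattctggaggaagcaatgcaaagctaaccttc
At most 3 bases of these sequences equalled neither germline end.

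A TRB chain was read beside the TRAV13 chain in 186 of 190 WT cells and 202 of 209 Btla-/- cells. Their TRB chains, 202 in WT and 220 in Btla-/- cells, belonged to 19 names of TRBV subgroup, counting the joint call TRBV12-2+TRBV13-2 of the annotation as 1. In WT cells TRBV12 led with 13.4% (27 of 202, interval 8.997 to 18.8%), and in Btla-/- cells it had 7.27% (16 of 220, interval 4.21 to 11.5%). TRBV12 stood between these values, at 10.7% in WT and 10.1% in Btla-/-, in cells with other alpha chains only. TRBV13 led in Btla-/- cells with 13.2% (29 of 220, interval 9.01 to 18.4%) and had 9.41% in WT cells (19 of 202, interval 5.76 to 14.3%). Counting the joint call as TRBV13 raised it to 14.9% in WT and 20% in Btla-/- cells, above TRBV12 without the joint call. Counted as TRBV12 instead, the joint call raised that subgroup to 18.8% (38 of 202) and 14.1% (31 of 220), above TRBV13 without it, so the order of these subgroups depends on that call.

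Among subgroups higher in Btla-/- cells, TRBV3 differed most, with 3.96% of TRB chains in WT TRAV13 cells (8 of 202, interval 1.73 to 7.65%) and 9.55% in Btla-/- TRAV13 cells (21 of 220, interval 6.01 to 14.2%). In cells with other alpha chains only, TRBV3 stood at 6.36% and 6.30%, between these values. TRBV31 had 5 WT and 10 Btla-/- chains, and TRBV15 and TRBV20 had 16 and 12 WT chains against 12 and 8 Btla-/- chains. TRBV5 had 16 chains in each library and TRBV19 had 15 and 17. Of the 16 TRBV names with at least 10 chains, 0 had intervals that were apart between the libraries, and in cells with other alpha chains only the intervals were apart for 5.56% (1 of 18).

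**Figure D5:**
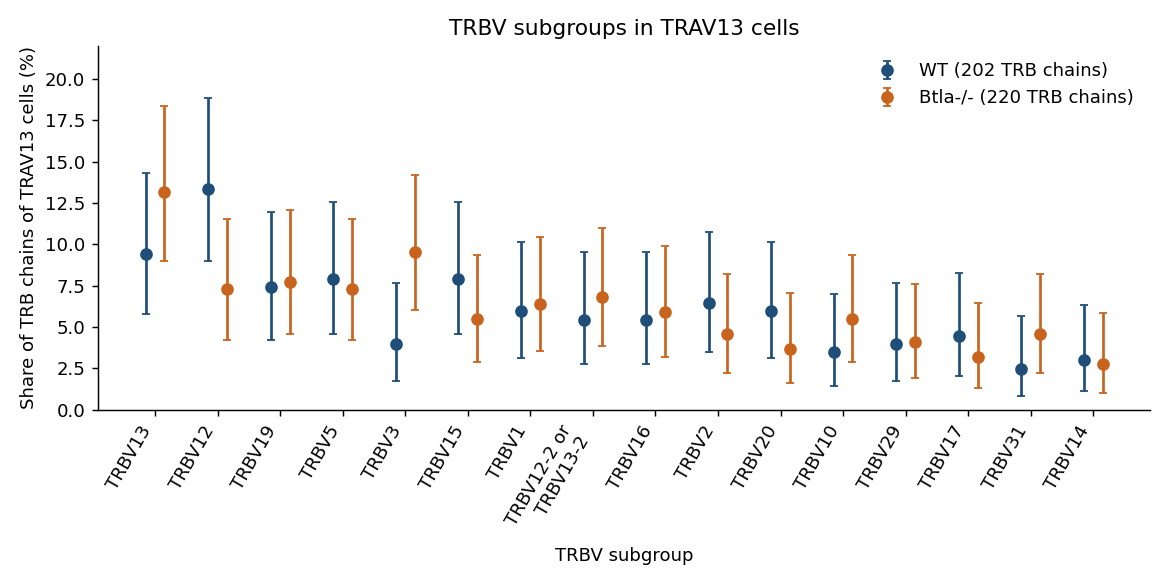
Share of the TRB chains of TRAV13 cells (y axis, percent) by TRBV subgroup (x axis, names with at least 10 chains) in WT (blue, 202 chains) and Btla-/- (orange, 220 chains), with exact 95% intervals as bars. TRBV12 is higher in WT (13.4% and 7.27%) and TRBV3 in Btla-/- cells (9.55% and 3.96%), and the bars of every name overlap.

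A second alpha chain was read in 35 of 190 WT cells with TRAV13 (18.4%, interval 13.2 to 24.7%) and 30 of 209 such Btla-/- cells (14.4%, interval 9.90 to 19.9%). Any alpha chain was read in only 1704 of 4040 WT and 1798 of 5077 Btla-/- cells, so second chains that were not read are missing from these shares. A cell with 2 alpha chains has 2 chances to hold any subgroup, so chains were compared instead. Of TRAV13 chains, 19.7% in WT (38 of 193, interval 14.3 to 26.0%) and 14.4% in Btla-/- cells (30 of 209) lay in a cell with 2 alpha chains, against 16.7% (interval 14.9 to 18.5%) and 12.5% (interval 10.98 to 14.2%) of the other alpha chains. Intervals of TRAV13 and the other chains overlapped in both libraries. No step removed droplets with more than 1 cell, and their part in these pairs was not tested.

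In 3 WT cells and 0 Btla-/- cells both alpha chains were TRAV13. The 2 chains of a cell lay on the same side of the boundary between TRAJ30 and TRAJ31 in 30 of 35 WT cells (85.7%, interval 69.7 to 95.2%) and 21 of 30 Btla-/- cells (70%, interval 50.6 to 85.3%). In cells with 2 alpha chains outside TRAV13 this was so in 79.7% (98 of 123, interval 71.5 to 86.4%) and 81.5% (75 of 92, interval 72.1 to 88.9%). The partner was never TRAV11 with TRAJ18, the alpha chain of invariant natural killer T cells, in 0 of 35 and 0 of 30 cells, with limits of 8.57% and 10%, nor TRAV1 with TRAJ33, that of mucosal-associated invariant T cells.

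TRAV13 contigs rested on few transcripts, like the alpha contigs as a whole. The median was 3 UMIs in both libraries, with a range of 1 to 16 in WT and 1 to 10 in Btla-/- cells, and medians of 1292 and 822 reads. Contigs with fewer than 3 UMIs made up 31.6% of WT TRAV13 contigs (61 of 193, interval 25.1 to 38.7%) and 42.1% of Btla-/- TRAV13 contigs (88 of 209, interval 35.3 to 49.1%). Among other TRA chains they made up 31.2% (interval 29.0 to 33.5%) and 45.9% (interval 43.5 to 48.3%). The single genes had median counts between 2 and 6 UMIs, and TRAV13-4-DV7 had 4 in WT and 6 in Btla-/- cells.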

How the data were processed

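Alpha and beta chain transcripts of single thymic CD4 SP cells were read by the 10× Genomics V(D)J assay from 1 WT and 1 Btla-/- library. Per the labels and the study's methods, the authors used Cell Ranger 7.2.0 with a GRCm38 reference to assemble and name the contigs, and deposited raw counts of reads and UMIs for each productive contig, without normalization. Tables of CDR3 lengths, V gene percentages and clone proportions that the authors made from these contigs were not used. Every TRA contig was taken as 1 chain, and barcodes with more than 1 TRB chain were kept. Annotated names of nearly identical copies can be exchanged, so V regions were also searched, for exact matches, in chromosome 14 of GRCm38.p6 (RefSeq), a choice made after the data were seen. Sequences and gene positions are those of RefSeq. Germline bases in a joint were counted as the longest match to the V end from the left and to the TRAJ start from the right.

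The members, the lists and the TRAJ30 boundary were chosen with earlier results of these data known. Named were all TRAV13 genes, the 3 most used TRAJ segments and TRBV subgroups of each library (with ties) and the 3 with the largest difference in each direction among those with at least 10 TRAV13 chains, the 3 subgroups with the most similar TRAJ use, and chains in several cells. Of the repeated chains only those in 3 cells were printed. Shares carry exact (Clopper-Pearson) 95% intervals, for counting error only: reads are not independent molecules, and 193 chains give a share of 51.3% an interval of 44.0 to 58.5%. Intervals that do not overlap were called apart, which is a description and not a test. Measures were tested on simulated data. The alternatives were a minimum of 3 UMIs, cells with 1 chain of each kind, distinct chains, barcodes of a single library, the TRA contig with most reads, other TRAJ boundaries, the joint TRBV call counted either way and names by sequence. Computations used Python 3.11.15, pandas 2.3.3, NumPy 2.4.6 and SciPy 1.17.1.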

Additional observations from a re-analysis of the deposited data

How the results depend on the processing

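Of 340 values recomputed under the alternatives, 322 stayed inside the 95% interval of the value under the main setting. For the shares of single genes and copy classes among TRAV13 chains the main setting used the annotated names. Their naming by match to the genome, used in the results above, was counted here as an alternative. Most alternatives keep a large part of the same chains, so their values are not independent of the main value. Mean CDR3 length ran from 13.20 to 13.34 residues in WT and from 13.23 to 13.35 in Btla-/- cells. The TRAV13 share ran from 9.96 to 10.5% in WT and from 10.9 to 11.6% in Btla-/- cells, and the TRAJ1 to TRAJ30 share from 69.8 to 73.2% and 65.2 to 70.9% for D and N copies against 23.8 to 32.1% and 25.6 to 28.3% for genes without a letter. By construction the share moved with the boundary, to 28.0% in WT and 33.5% in Btla-/- cells at TRAJ20, and to 71.0% and 69.4% at TRAJ40. For D and N copies it was 45.0% and 52.5% at TRAJ20 and 85.3% and 80.8% at TRAJ40, and for genes without a letter 5.95% and 7.87%, and 52.4% and 53.9%, boundaries added for the classes after the data were seen. N copies, 47.7% and 47.8% by the annotated names, were 29.0% and 24.9% by the match to the genome, because the chains that match both TRAV13D-2 and TRAV13N-2 and those of TRAV13-5 then left the class. With at least 3 UMIs, TRAV13D-3 held 0.826% of Btla-/- TRAV13 chains in place of 3.35%. Second alpha chains in Btla-/- TRAV13 cells ranged from 9.92 to 14.4%. No paired analysis was possible because each genotype had 1 library, and no library could be left out. At this depth the interval of a gene with 10 to 20 chains spans several percentage points. Smaller differences between the libraries could not be told from counting error. With 1 library of each genotype, larger differences could not be assigned to the genotype either.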
